A study of Drosophila melanogaster with 2 samples.

Results

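The genes described here encode 10 Drosophila melanogaster proteins of insulators and promoter architecture: Chro, Cp190, BEAF-32, CTCF, su(Hw), mod(mdg4), Trl, M1BP, Dref and pzg. They are 10 of 13945 protein-coding genes on the 6 main chromosomes. The genes were chosen by their peaks in this experiment, with the signals and positions of the peaks at Chro and Trl already known, so every value below is a description and none was tested. For each gene, all peaks with a summit in the gene body or within 2 kb on either side were taken, with their distance to the transcription start sites (TSSs) and to any head-to-head neighbour.

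The peaks come from chromatin immunoprecipitation and sequencing of shuttle craft (stc), the fly relative of the zinc finger protein NFX1, in whole embryos of mixed age, 0 to 24 h. The embryos carried an stc-eGFP fusion as a transgene, per the labels, and their description has the fusion pulled down through its GFP part, while their antibody field names stc. A single group of 2 biological replicates was profiled, without another genotype, age or treatment. No control was analysed here, so background in the immunoprecipitation could not be measured, and whole embryos mix the binding of all their cell types.

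Insulator proteins bind DNA at the borders of chromatin domains and recruit shared cofactors that hold distant sites together or keep an enhancer from acting on the wrong promoter. In flies many of the same proteins sit at the promoters of constitutively active genes, which often lie back to back and share a short stretch of regulatory DNA. BEAF-32, CTCF, su(Hw) and Trl (GAGA factor) recognise DNA sequences of their own; Cp190 and mod(mdg4) are BTB domain cofactors that join them. Chro and its partner pzg mark the open interbands of polytene chromosomes, Dref binds the DNA replication-related element (DRE), and M1BP binds a core promoter motif known as motif 1.

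The bases around the summits at these genes are shown first, as a description. No motif searched for lay within 50 bp of more than 2 of the 14 summits, and most summits lay in DNA rich in A and T. The 3831 peaks that the authors kept between the replicates were similar. TATAAA, the motif found most often, was within 50 bp of 22.7% of them. Their median share of A and T within 50 bp was 68.3%, against 68.8% for the 14 peaks here. The bases were read from the RefSeq Release 6 assembly (dm6), plus strand, 5′ to 3′, and capitals mark unbroken runs of 6 or more A or T. Summits inside an untranslated region are shown with 30 bases, the others with up to 101, and none is printed for BEAF-32.
Chro, chr3L:22878890-22878919: gtcgatagcTTTAAActaactgcagtccag
Trl, strongest peak, chr3L:14759474-14759574: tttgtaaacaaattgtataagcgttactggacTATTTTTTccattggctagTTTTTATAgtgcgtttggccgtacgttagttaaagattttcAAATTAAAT
Trl, intron peak of 208.8, chr3L:14756131-14756231: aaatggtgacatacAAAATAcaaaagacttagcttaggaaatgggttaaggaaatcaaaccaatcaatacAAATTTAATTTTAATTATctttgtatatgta
Trl, intron peak of 160.4, chr3L:14760346-14760446: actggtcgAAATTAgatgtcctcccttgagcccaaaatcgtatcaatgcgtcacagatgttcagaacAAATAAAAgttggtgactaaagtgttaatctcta
Trl, promoter peak, chr3L:14757202-14757231: gggAAAATTctcttcaagttgggATTTTTc
Cp190, chr3R:15275354-15275454: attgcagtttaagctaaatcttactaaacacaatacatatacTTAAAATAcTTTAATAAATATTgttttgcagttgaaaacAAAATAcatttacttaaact
mod(mdg4), upstream peak, chr3R:21378721-21378821: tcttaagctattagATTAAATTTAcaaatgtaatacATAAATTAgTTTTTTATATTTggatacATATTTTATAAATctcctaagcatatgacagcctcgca
mod(mdg4), internal peak, chr3R:21365430-21365459: atatgcatattggtattggtacTAATAAAT
pzg, chr3L:21285865-21285894: cagcaatcgcaataagAAAAATAAATgctt
Dref, chr2L:9967319-9967348: ggttgcgatttccTTTTTAATTcgttgttg
M1BP, chr3R:8731993-8732090: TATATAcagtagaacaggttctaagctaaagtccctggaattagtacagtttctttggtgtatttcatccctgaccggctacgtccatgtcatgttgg

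Peaks were present at 8 of the 10 genes in the list that the authors kept between the replicates, called the conservative list. The same window held a summit at 27.0% of all protein-coding genes. The larger thresholded list of the series likewise had peaks at 8 of the 10 genes, against 32.8% of all genes. In the replicates' own lists the count was 7 of 10 in replicate 1, against 22.2% of all genes, and 6 of 10 in replicate 2, against 27.2% of all genes. These shares cannot be read against each other as a result, because the genes were chosen with their peaks known.

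A promoter summit, here one within 250 bp of a TSS of the gene itself, was present at Chro, Cp190, BEAF-32, Trl, Dref and pzg. That makes 6 of 10 genes in the conservative list, beside 10.2% of all protein-coding genes. The larger list also gave 6 of 10, beside 13.4% of all genes. Replicate 1 alone gave 6 of 10, beside 8.18%, and replicate 2 alone gave 5 of 10, beside 10.8%, with pzg missing. Of the remaining genes, mod(mdg4) and M1BP had peaks farther from their own TSSs, and CTCF and su(Hw) had none in any of the 4 thresholded lists.

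The 8 genes held 14 of the 3831 peaks of the conservative list. The signal of a peak is the value the authors' peak caller gave it, in units that the sources used here do not define. At the member genes it ran from 21.7 to 1349.8 with a median of 188.9, and over the whole list its median was 126.2, with quartiles of 94.1 and 199.4 and a maximum of 1950.8. Of the 14 peaks, 11 lay above the median of the list, 7 above its upper quartile and 3 below its lower quartile. Some 10 of the 14 overlapped a thresholded peak in both replicates, 2 in replicate 1 alone and 2 in neither. Over the whole conservative list, 53.2% of the peaks did so in both replicates. The irreproducible discovery rate (IDR), the authors' measure of how well the ranks of a peak agree between a pair of lists, was at most 0.01 for the peaks they kept.

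Chro (Chromator, FBgn0044324, chr3L:22873702-22878984, minus strand) encodes a chromodomain protein that binds interband chromatin and, in mitosis, the spindle matrix. It had the strongest peak of the 10 genes, at chr3L:22878751-22879061, with a signal of 1349.8 and rank 12 of 3831. Replicate 1 gave 724.2 and rank 8 of 2782 peaks, and replicate 2 gave 625.3 and rank 15 of 3806 peaks. The 3 summits lay 79, 82 and 78 bp downstream of the start farthest 5′, so both replicates placed the peak at the same spot. The IDR stood at 1.00e-05, the cap of the measure.

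The annotation gives Chro 5 transcripts from 3 TSSs. Only 1 transcript begins at the start farthest 5′, and in it the summit lay in the 5′ UTR. Another 3 begin at the next TSS, where the summit was 137 bp upstream, and 1 begins at the last, where it was 721 bp upstream. Ssl1, which encodes a subunit of the transcription factor TFIIH, starts head to head with Chro at 105 bp, and the summit lay 184 bp upstream of the TSS of Ssl1. In the 30 bases printed above, the stretch tcgata holds a CGATA, the sequence bound by BEAF-32, starting 13 bp before the summit.

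pzg (putzig, FBgn0259785, chr3L:21286099-21290310, plus strand) encodes a zinc finger protein found with Chro in interbands and with Dref in a complex containing TRF2. Its peak, at chr3L:21285705-21286054, had a signal of 128.5 and rank 1864, close to the median of the list. The replicates differed here. Replicate 1 had a kept peak of 89.8 at the same summit, 219 bp upstream of the TSS, and a second, weak one of 17.6 at 18 bp upstream. Replicate 2 had only a ranked peak of 41.0, 68 bp upstream, with an IDR of 0.172. Both summits of the conservative and larger lists lay beyond the start of the neighbour: CG12974 begins head to head with pzg at 137 bp, and its TSS was 82 bp away from the summit, inside CG12974.

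Cp190 (FBgn0000283, chr3R:15270432-15275241, minus strand) encodes the cofactor shared by the insulator complexes of su(Hw), CTCF and BEAF-32. Its peak at chr3R:15275259-15275511 had a signal of 466.5 and rank 180. The replicates gave 229.9 and 232.5, nearly the same value, with ranks of 180 and 213. Summits lay 163 bp upstream of Cp190 in the conservative list, and 145 and 162 bp upstream in replicates 1 and 2. CG4338 starts head to head at 281 bp, so the peak sat between both starts, 118 bp upstream of the TSS of CG4338. At the summit, 79.2% of the 101 bases were A or T, against 54.5% in windows 300 bp to either side.

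BEAF-32 (FBgn0015602, chr2R:14770469-14772630, plus strand) encodes the DNA-binding protein that recognises clusters of CGATA. It had 3 peaks in the conservative list, all within 250 bp of one of its 3 TSSs. The strongest, with a signal of 148.2 and rank 1538, lay 101 bp upstream of the first TSS. Replicate 1 gave 59.5 there and replicate 2 gave 91.1, with summits 152 and 92 bp upstream.

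The other peaks at BEAF-32 were weaker and rest on the same evidence. One had a signal of 90.0, 113 bp downstream of the middle TSS, and one had 21.7, 70 bp upstream of the last TSS. Both were built from the same pair of replicate peaks, 44.8 in replicate 1 and 52.2 in replicate 2, the second of which had an IDR of 0.0195 and was not kept in its own list. The authors' −log10 q-value, lower for weaker evidence, was 0.113 for the peak of 21.7 and 1.71 for that of 90.0. The peak of 21.7 was absent from the larger list. A non-coding antisense gene, asRNA:CR42254, overlaps the 5′ part of BEAF-32, and its starts lay 98, 139 and 64 bp from the summits of the peaks of 148.2, 90.0 and 21.7, so the peaks cannot be given to either strand.

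**Figure D1:**
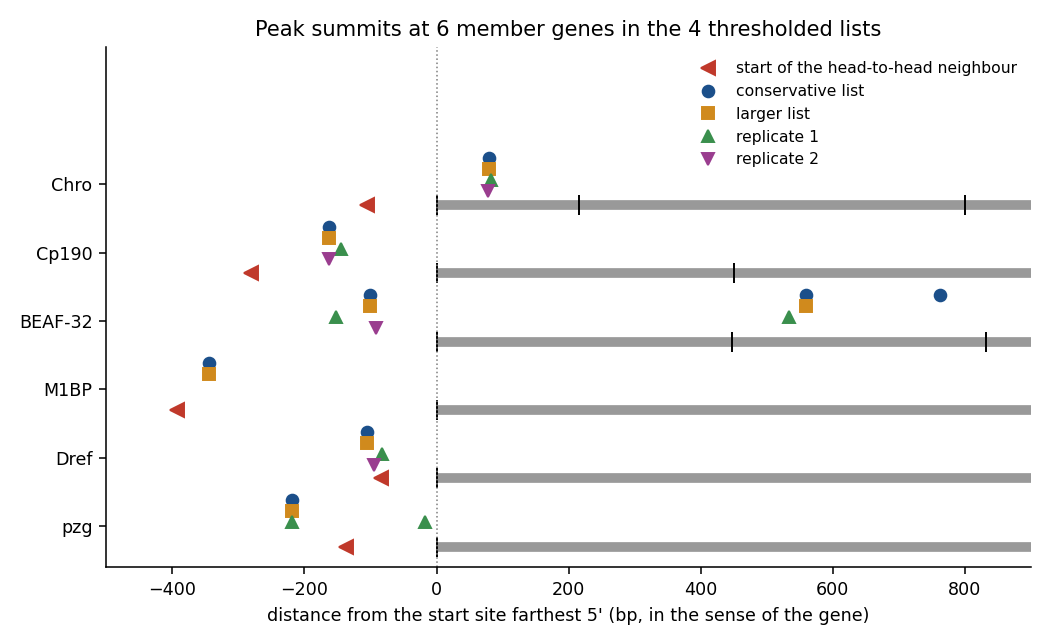
Position of every thresholded summit at 6 of the genes, in bp from the start farthest 5′, in the conservative and larger lists and in replicates 1 and 2 (symbols). Grey bars are the genes, cut off at the right edge, black ticks their annotated starts and red arrows the start of the protein-coding head-to-head neighbour; at Chro the 4 summits lie 78 to 82 bp downstream, while at Dref they lie within 21 bp of the first start of RpL13, at pzg 1 of the replicate 1 summits lies 18 bp upstream of pzg and the others beyond the neighbour's start, and M1BP has no summit in either replicate.

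CTCF (FBgn0035769, chr3L:7353578-7356713, minus strand), the zinc finger protein known as an insulator factor from flies to mammals, had no kept peak in any of the 4 lists. A ranked peak lay 122 bp downstream of its single TSS, with a signal of 69.1 and an IDR of 0.0248, past the limit of 0.01. The peak of 69.1 had an IDR of 0.0159 in the larger ranked list. The replicates' ranked peaks there had 37.5 at 184 bp and 31.3 at 112 bp, with IDRs of 0.0558 and 0.216. No peak at the TSS of CTCF therefore met the authors' threshold. The replicates' ranked lists hold 104070 and 94143 peaks, and without a control such weak peaks cannot be told from background. The nearest kept summit lay 3728 bp outside the gene, with a signal of 74.8.

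su(Hw) (FBgn0003567, chr3R:14304455-14308589, minus strand), which encodes the zinc finger protein of the gypsy insulator, also had no kept peak. Its strongest ranked peak between the replicates had a signal of 48.3, 1414 bp into the gene, and an IDR of 0.247. Among the 3 strongest ranked peaks of each replicate the lowest IDR was 0.167 in replicate 1 and 0.428 in replicate 2, all far from the threshold. Polr2I, which encodes a subunit of RNA polymerase II, starts head to head with it at 500 bp.

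mod(mdg4) (FBgn0002781, chr3R:21350846-21377401, minus strand) encodes a large family of BTB proteins, one of which is the partner of su(Hw). Its isoforms share their first exons and differ in their last, and some of these last exons are transcribed separately and joined by trans-splicing. It is the longest of the 10 genes, at 26556 bp, and its 22 transcripts share 1 TSS. No kept summit lay within 250 bp of that TSS. Among genes of 15 kb or more, 54.7% had a summit in the window, against 21.1% of those under 5 kb, so a peak somewhere in a long gene is common.

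The stronger peak at mod(mdg4), at chr3R:21378630-21378876, had a signal of 501.5 and rank 161. Replicate 1 gave 208.8 and replicate 2 gave 301.3. Its summit lay 1370 bp upstream of mod(mdg4) but only 206 bp upstream of tin, on the other strand, which encodes the homeobox factor required for the heart. This peak is the one nearest the edge of the window inside it, and by distance it is a promoter peak of tin.

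The internal peak, at chr3R:21365353-21365499, had a signal of 290.4 and rank 502. Replicate 1 gave 173.3 with rank 326, and replicate 2 gave 103.3 with rank 1019. The summit lay 11956 bp into the gene, in intron 4 of 18 of the 22 transcripts and outside the span of the other 4. It also lay 43 bp downstream of the start of pre-mod(mdg4)-E, an annotated gene for an alternative 3′ part of mod(mdg4), on the same strand. The peak thus coincided with an annotated start inside the gene. One more peak was kept in the larger list, with a signal of 84.9 at 1008 bp downstream of the TSS, in intron 3 of all 22 transcripts; replicate 2 had 80.2 there and replicate 1 had no peak. A ranked peak 711 bp past the end of the gene, with a signal of 93.6 and an IDR of 0.00326, met the limit but is not in the conservative list. It is 1 of 99 ranked peaks that reach the score of the kept peaks and are not in that list, and the sources used here do not say why.

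Trl (FBgn0013263, chr3L:14747929-14761049, minus strand) encodes GAGA factor, which binds GAGAG repeats and opens promoter chromatin. It held 4 peaks of the conservative list, 1 per 4.28 kb of its window, against 1 per 34.9 kb of the main chromosomes. Across all protein-coding genes, 1.33% had 4 or more summits in their window, and 1.08% of those between 5 and 15 kb long, the class to which Trl belongs. The peaks at Trl were known when the gene was chosen, so neither the density nor these shares can show that it is unusual. All 4 peaks had a kept peak in both replicates.

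The strongest, at chr3L:14759363-14759675, had a signal of 1092.4 and rank 20, with 538.8 and rank 23 in replicate 1 and 546.6 and rank 25 in replicate 2. Its summit moved by at most 4 bp between the lists. It did not lie at a TSS: 1 transcript begins 1525 bp upstream of the summit and crosses it in intron 2, while the other 9 begin at least 1562 bp downstream. Only 1 of the 10 transcripts contains this site, although it ranked second of the 14 peaks by signal.

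The promoter peak of Trl, at chr3L:14757111-14757278, had a signal of 294.1 and rank 492, with 119.1 in replicate 1 and 165.7 in replicate 2. Its summit lay 119 bp downstream of the TSS nearest to the coding sequence and 745 bp downstream of the TSS used by 7 of the 10 transcripts. It fell within the 5′ UTR of all 10 transcripts. Another peak, of 208.8, lay in an intron 1155 bp beyond the same TSS, with 117.1 in replicate 1 and 88.8 in replicate 2. The weakest, of 160.4, lay 653 bp downstream of the start farthest 5′, with 103.7 in replicate 1 and 70.7 in replicate 2. One more summit, 313 bp upstream of the nearest TSS, was kept in the larger list, at 68.8, and in replicate 2, at 53.7, while replicate 1 had a ranked peak of 13.2.

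**Figure D2:**
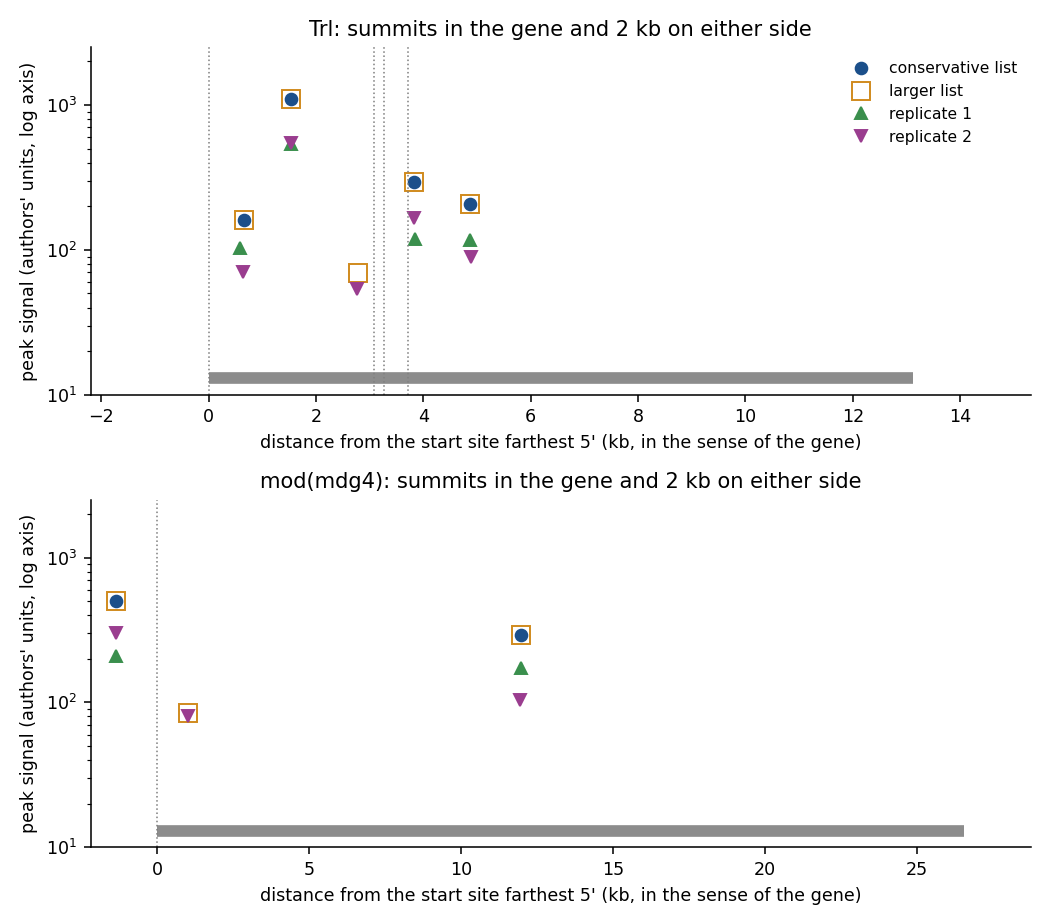
Signal of every thresholded peak (log axis) against the distance of its summit from the start farthest 5′, in kb, at Trl and mod(mdg4), for the conservative and larger lists and replicates 1 and 2 (symbols). Grey bars are the genes and dotted lines their annotated starts; the peak of 1092.4 at Trl stands between the starts, and the peaks of mod(mdg4) lie 1370 bp upstream of its TSS, 1008 bp downstream of it (larger list and replicate 2) and 11956 bp downstream.

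Dref (FBgn0015664, chr2L:9964147-9967229, minus strand) encodes the factor that binds the DRE in promoters of replication and growth genes. Its peak at chr2L:9967159-9967508 had a signal of 168.9 and rank 1239, with 74.6 in replicate 1 and 87.2 in replicate 2. RpL13, which encodes a protein of the large ribosomal subunit, starts head to head at 84 bp. RpL13 has a further start 101 bp from that of Dref. The conservative summit lay 105 bp upstream of the TSS of Dref, 21 bp past the first start of RpL13 and 4 bp past the other, and those of replicates 1 and 2 lay 82 and 94 bp upstream of Dref. The 83 bases between the start of Dref and the first start of RpL13 are printed here because the peak covers them whole, with CGATA in capitals, on the plus strand.
Dref to RpL13, chr2L:9967230-9967312: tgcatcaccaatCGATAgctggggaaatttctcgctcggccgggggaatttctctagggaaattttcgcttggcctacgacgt

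M1BP (FBgn0037621, chr3R:8729790-8731698, minus strand) encodes the zinc finger protein that binds motif 1 and pauses RNA polymerase II at housekeeping promoters. Its only kept peak, at chr3R:8731868-8732217, had a signal of 93.8, rank 2885 and an IDR of 0.00533. Neither replicate kept it in its own list. Replicate 1 had a ranked peak of 54.9 with an IDR of 0.0136, and replicate 2 one of 40.5 with an IDR of 0.692. The summit lay 345 bp upstream of M1BP but 48 bp upstream of CG8202, which starts head to head at 393 bp. A further ranked peak 96 bp upstream of M1BP had 81.3 and an IDR of 0.0199, or 0.0488 in the larger ranked list, both past the limit of 0.01. Of the 8 genes with a peak, M1BP was the only one with no kept peak in either replicate.

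An overlapping peak, kept or ranked, was found in both replicates in 13 cases, counting the pair at BEAF-32 that shares its input once. In 2 cases the replicate 2 summit lay far from that of the conservative list, so the replicates may not hold the same peak. The distance was 151 bp at pzg and 164 bp at the BEAF-32 peak of 90.0. Replicate 1 was higher in 6 of the 13 cases and replicate 2 in 7. The ratio of replicate 2 to replicate 1 ran from 0.46 at pzg to 1.53 at the first BEAF-32 peak, with a median of 1.01. Over the 2037 peaks of the conservative list with a kept peak in both replicates, the median ratio was 1.10, and percentiles 5 and 95 were 0.68 and 1.76. Of the member peaks, 10 were likewise kept in both replicates, with ratios of 0.60 to 1.53 and a median of 1.01, and the internal peak of mod(mdg4), at 0.60, was below the lower of these percentiles. The peak of pzg was not kept in replicate 2, so its ratio has no counterpart in that range. Chro, Cp190 and the strongest Trl peak had ratios of 0.86, 1.01 and 1.01.

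**Figure D3:**
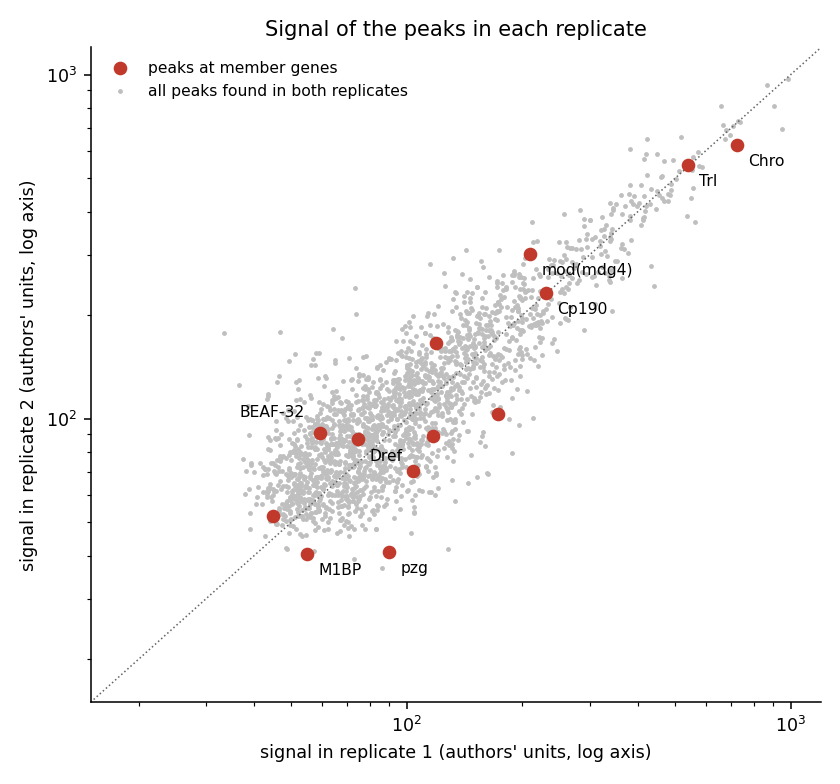
Signal in replicate 2 against signal in replicate 1, both on log axes, for 13 peaks at the member genes (red, ranked peaks included) and for 2037 peaks kept in both replicates (grey). The dotted line marks equal signal; Chro at 724.2 and 625.3 and the strongest Trl peak at 538.8 and 546.6 are at the upper end, and among the red points pzg, at 89.8 and 41.0, lies farthest below the line.

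A head-to-head neighbour, a gene on the other strand that starts upstream within 500 bp, was present at 7 of the 10 genes, against 29.6% of all protein-coding genes. Among the 6 genes with a promoter summit it was present at 5, the exception being Trl, whose nearest such neighbour, Mgat4a, begins at 979 bp. The matching share, among all protein-coding genes with a promoter summit, was not counted, so the 5 of 6 has no reference here. At Cp190 the summit lay between both starts. At Dref and pzg it lay just inside the neighbour, and at Chro inside Chro itself. At BEAF-32 the neighbour was the antisense gene, which starts 6 bp from the last of the 3 BEAF-32 starts, inside the gene. The strongest BEAF-32 peak, of 148.2, lay instead at the first start, where another antisense start was 98 bp from the summit. Because the fragments sequenced were 200 to 800 bp long by the labels, a peak at starts 6 to 281 bp apart cannot be given to 1 gene of the pair.

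Most member peaks were richer in A and T than the DNA beside them. Within 50 bp of the summit the median share of A and T was 68.8% over the 14 peaks, with a range of 55.4% to 81.2%, and 55.0% in windows centred 300 bp away. The share was higher at the summit in 12 of 14 peaks, the exceptions being Chro, at 68.3% against 71.8%, and Dref, at 57.4% against 59.4%. The highest shares were at the first BEAF-32 peak, at 81.2%, at Cp190, at 79.2%, and at the peak between mod(mdg4) and tin, at 76.2%. Over all 3831 peaks the median was 68.3% at the summit and 56.4% beside it, and 76.4% of them had more A and T at the summit. The member peaks therefore had base composition close to that of the whole list. This measure was added after the peaks had been seen.

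**Figure D4:**
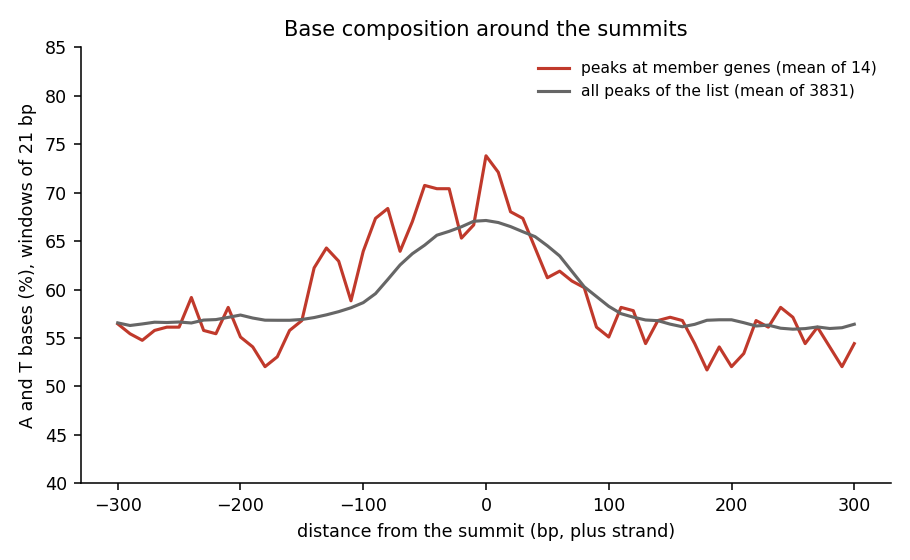
Mean percentage of A and T in windows of 21 bp against the distance from the summit in bp, for the 14 peaks at member genes (red) and for all 3831 peaks of the conservative list (grey). Both curves are highest within 100 bp of the summit, with 73.8% at the summit for the member genes and 67.1% for all peaks, and the red curve is uneven because it averages 14 peaks.

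The motifs of the proteins that these genes encode were looked for on both strands, within 50 and 150 bp of each summit and from 250 bases before to 50 after each gene's start farthest 5′. The DRE, TATCGATA, was within 50 bp of 0 of the 14 member summits, against 0.783% of all peaks, and within 150 bp of 1, the first BEAF-32 peak, against 3.21%. It was present in 4 of the 10 promoters, those of Cp190, BEAF-32, CTCF and mod(mdg4), against 9.36% of all promoters. With so low a share over all peaks, the count of 0 of 14 cannot set these summits apart from the list. The DRE of BEAF-32 began 109 bp before the summit of its first peak, inside that peak. At CTCF and mod(mdg4) the DRE lay in promoters without a kept peak. CGATA, which the DRE contains, was within 50 bp of 2 summits, at Chro and pzg, and within 150 bp of 6, against 461 and 1310 of the 3831 peaks of the list, and in 6 promoters, against 47.4% of all promoters.

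The DRE of 3 of these promoters is shown in capitals, in the sense of the gene, from 60 bases before the start to 8 bases from it, because its place can then be set against the summits given above. It begins 4 bases before the start of Cp190, 21 before that of CTCF and 54 before that of mod(mdg4). That of BEAF-32 begins 210 bases before its first start, outside the stretch shown, and is not printed.
Cp190, chr3R:15275234-15275301, minus strand: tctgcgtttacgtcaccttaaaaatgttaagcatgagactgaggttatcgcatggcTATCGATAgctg
CTCF, chr3L:7356706-7356773, minus strand: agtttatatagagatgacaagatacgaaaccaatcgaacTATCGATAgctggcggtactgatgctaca
mod(mdg4), chr3R:21377394-21377461, minus strand: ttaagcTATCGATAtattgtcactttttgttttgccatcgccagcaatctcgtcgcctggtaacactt

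GAGAG, the site of GAGA factor, was within 50 bp of 0 member summits and within 150 bp of 1, the peak of 160.4 at Trl, against 10.3% and 37.6% of all peaks. It was in 0 of 10 promoters, against 29.7% of all promoters. At Trl the window covered the start farthest 5′, used by 1 of its 10 transcripts, and left out the start used by 7. The motif 1 core, GGTCACACT, was near no member summit, against 1.88% of all peaks within 150 bp, and in 1 promoter, that of su(Hw), at 6 bases past the start, against 6.05% of promoters. The CTCF motif AGGNGGCGC and the su(Hw) core GCATACTT were near no member summit and in no member promoter, against 1.20% and 1.62% of all peaks within 150 bp and 0.674% and 1.25% of promoters. TATAAA was within 50 bp of 2 summits, the upstream peak of mod(mdg4) and the strongest of Trl, and within 150 bp of 7, against 22.7% and 43.4% of all peaks. It was in 5 promoters, against 45.8% of promoters. The windows of the overlapping BEAF-32 peaks share bases, and with 14 peaks and 10 promoters these counts are a description of the letters in each window.

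A wider list of 40 genes of architectural proteins, cohesin and condensin, and chromatin partners was looked at in the same way, and 38 symbols matched the annotation. A promoter summit of the conservative list was present at 5 of the 38, or 13.2%, against 10.2% of all protein-coding genes, and the larger list gave 9, or 23.7%, against 13.4%. Replicate 1 gave 5, or 13.2%, against 8.18% of all genes, and replicate 2 gave 7, or 18.4%, against 10.8%. None of these shares was tested. By group they were 2 of 14 architectural DNA-binding proteins, 2 of 10 cohesin and condensin genes and 1 of 14 chromatin and promoter factors.

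The strongest of the 5 was at pds5, which encodes a regulator of cohesin, with a signal of 619.0 and rank 109, 156 bp upstream of its TSS, and pds5 is head to head with Mppe. SMC2, a core subunit of condensin, had 230.7 and rank 746, 147 bp upstream, and is head to head with Ercc1, a DNA repair gene. Both were bound in each replicate's own list. The remaining peaks were at psq, a BTB factor that also binds GAGA sites, with 111.5, at fs(1)h, a bromodomain protein of the BET family, with 99.8, and at lola, a BTB factor with many isoforms, with 72.9, and each was kept at the promoter in only 1 replicate. The cohesin subunits vtd, SMC1 and SMC3 had no promoter summit in the conservative list, although SMC1 had one in the list of replicate 2.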

How the data were processed

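Peak lists on dm6 were used as the authors deposited them: a ranked and a thresholded list per replicate, and the conservative and larger lists of the series. The authors deposited a signal per peak. The scaling, aligner and caller behind it were not given in the sources used here. Each peak also has the authors' deposited IDR score, and −log10 q-values and −log10 IDR values were deposited by the authors beside the peaks. The lists hold no read counts, so the depth is unknown. The labels number the replicates; no test was run. Columns left out numbered 0.

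Genes came from Ensembl BDGP6.54, release 115, and sequence from RefSeq Release 6. A peak was matched to one of a replicate when both shared at least 50% of the shorter. Python 3.11.15, pandas 2.3.3, numpy 2.4.6 and matplotlib 3.10.9 were used, and the counting was tested on simulated data. The members, the wider gene list and the motifs were chosen with earlier results of these data known. All 10 members were named; genes of the wider list were named when they had a promoter summit in the conservative list, and neighbours when nearest to a summit or head to head.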

Additional observations from a re-analysis of the deposited data

How the results depend on the processing

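The count of 8 genes with a peak fell to 4 when the 2 kb on either side of the gene was dropped, where 10.7% of all protein-coding genes had a peak. With 5 kb on either side the count was 9, where 38.8% of all protein-coding genes had a peak. A promoter window of 100 bp gave 2 genes with a promoter summit in place of 6, Chro and BEAF-32. That of BEAF-32 rests on the peak of 21.7, which the larger list lacks. Counting neighbours within 250 bp gave 4 head-to-head genes in place of 7. For the promoter window of 100 bp and for neighbours within 250 bp, the shares of all protein-coding genes were not counted. The summit nearest any TSS was also measured from the start farthest 5′. At BEAF-32 this same summit, of the peak of 21.7, stood 762 bp downstream instead of at -70. At Trl it stood 3832 bp downstream instead of 119 bp. Other summits lay nearer the start farthest 5′, 101 bp upstream of it at BEAF-32 and 653 bp downstream at Trl. With 1 replicate's own list in place of the list kept between both, 6 to 7 genes had a peak, 5 to 6 had a promoter summit and 12 to 13 peaks were counted. No paired analysis was possible because there is 1 group and no test. An IDR limit of 0.001, met by 2020 of the 3831 peaks, left 6 genes, 5 with a promoter summit and 10 peaks. Requiring a kept peak in both replicates, as 2037 of all peaks had, gave the same counts. The shares of all protein-coding genes under these stricter requirements were not counted, so the counts have no reference here. Without read depth or a control, no value has an interval, and signal cannot be set against background.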
